A study of Mus musculus with 39 samples.

Results

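The potassium channel subunit family of the mouse was described in brain RNA after exposure to soman. Members were the genes whose symbol is Kcn followed by 1 of the subfamily letters a, b, c, d, f, g, h, j, k, m, n, q, s, t, u or v and a number, which gave 76 of the 47561 genes in the deposited table. They spread over 15 subfamily letters, since no symbol with the letter m fitted this form. Of these, 59 members were among the 14701 genes at 1 FPKM or more in at least 3 libraries and were tested. FPKM is a level scaled to transcript length and to the number of mapped fragments.

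Soman is an organophosphate nerve agent that inhibits acetylcholinesterase and so prolongs cholinergic signalling. Mice received it under the skin at 1/10 LD50, 1/5 LD50 or 1/2 LD50, where LD50 is the dose lethal to 50% of animals, and brains were collected at day 1, day 3, day 7 or day 14. A single saline group served as control, so that 13 groups of 3 libraries gave 39 libraries. The labels do not give the strain, age, number of doses, number of animals per library or the day of the saline brains, and anything shared by the libraries of 1 day cannot be told apart from that day. All 12 comparisons with saline share the same 3 saline libraries. The samples are described as biological replicates, and p-values measure the spread between these libraries, taken as independent.

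Potassium channels set the resting potential of neurons and glia, end action potentials and limit repetitive firing. Most subunits assemble as tetramers around 1 pore, while those of the K2P group, whose genes carry the letter k, assemble as dimers and carry leak currents. Letters a, b, c and d mark the Shaker-, Shab-, Shaw- and Shal-related voltage-gated subunits, and f, g, s and v mark silent subunits that assemble with Shab subunits and modify them. Letters h and q mark the ether-a-go-go-related and the M-current subunits, j the inward rectifiers, n the small-conductance calcium-activated subunits, and t and u the large Slack- and Slo-type subunits.

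The highest level belonged to Kcnj10, the inward rectifier of astrocytes, at 43.7 ± 6.65 FPKM (SD, n = 39 libraries). Next came Kcnc1, a subunit of fast-spiking neurons, at 37.6 ± 6.19 FPKM, and these differed by less than the spread over libraries. The sodium-activated Kcnt1 at 29.1 ± 3.46 and the K2P channel Kcnk1 at 27.2 ± 2.16 FPKM were lower and within 1 SD of each other. Other letters were led by Kcnh3 at 23.3 ± 3.81, Kcnd2 at 21.7 ± 2.34, Kcna2 at 20.2 ± 3.14, Kcnn2 at 14.4 ± 1.81 and Kcnf1 at 11.6 ± 2.34 FPKM. Kcng4 at 7.28 ± 1.76, Kcnv1 at 3.79 ± 0.777 and Kcns2 at 3.49 ± 0.562 FPKM were lower. Of these silent subunits, Kcnf1 was thus the most abundant.

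**Figure D1:**
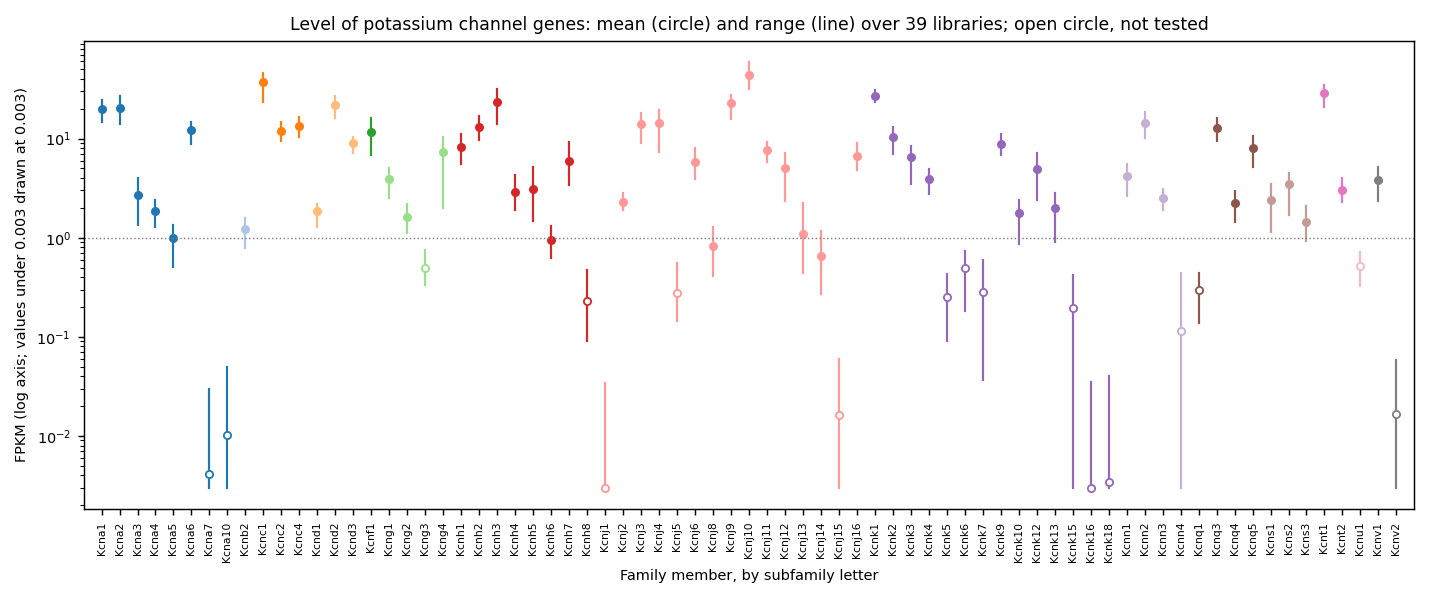
Level of 73 members in FPKM on a log axis, ordered by subfamily letter, with the mean over 39 libraries as a circle and the range as a line. Open circles mark the 17 members that were not tested, and the highest circle is Kcnj10 at 43.7 FPKM.

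The 17 members below the filter were Kcna7, Kcna10, Kcng3, Kcnh8, Kcnj1, Kcnj5, Kcnj15, Kcnk5, Kcnk6, Kcnk7, Kcnk15, Kcnk16, Kcnk18, Kcnn4, Kcnq1, Kcnu1 and Kcnv2. Kcnu1, the sperm-type Slo subunit, had the highest mean of them at 0.518 ± 0.0957 FPKM (SD, n = 39). Kcnj1 and Kcnk16 had the lowest, at 0.00252 and 0.00261 FPKM, and were listed at 0 in most libraries. They were not analysed further.

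Several libraries stood apart from the others. In 7 libraries, among genes over 2-fold apart in the remaining 2 of the group, more values lay between those 2 than for any library of another group: the third replicate of saline, of all day 1 groups, of 1/10 LD50 day 14 and of 1/5 LD50 day 14, and 1/10 LD50 day 7 replicate 2. Whether these 7 are independent of the other 2 of their group was not tested. If they are not, the spread within saline, day 1 and the other groups named is understated and p-values are too small. In 1/10 LD50 day 7 replicates 2 and 3 mitochondrial transcripts took 23.1% and 27.6% of the FPKM, against a median of 10.4% over 39 libraries. The summed level of 8 cerebellar markers was 61.3, 63.3 and 62.9 FPKM in 1/10 LD50 day 3 replicate 2, 1/5 LD50 day 3 replicate 2 and 1/2 LD50 day 7 replicate 1, and at least 184.3 FPKM in the other 36. All 10 neuronal markers were tested, of which 2 rose and 1 fell at day 3 and 1 rose at day 7 against day 1, and their summed level was 1657 to 1933 FPKM at day 1, 1755 to 1986 at day 3 and 1738 to 2103 at day 7. Against day 1, 6 and 8 of 8 meningeal fibroblast markers fell at days 3 and 7, 3 of 6 endothelial markers rose on both days, 2 of 8 astrocyte markers fell on both and 1 rose at day 7, 2 and 3 of 8 striatal markers rose, and 2 and 3 of 6 pericyte markers fell. No oligodendrocyte, microglial or blood marker was called at day 3 or day 7 against day 1. At day 14 against day 1, 5 of 8 oligodendrocyte, 3 of 8 microglial, 5 of 5 blood, 6 of 8 meningeal fibroblast and 4 of 6 pericyte markers fell. In that comparison 2 of 8 astrocyte and 1 of 6 endothelial markers fell. Those that rose were 1 astrocyte, 1 of 10 neuronal and 2 of 8 striatal markers. In bulk RNA, fewer cells of a type and less RNA per cell cannot be told apart.

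More members fell than rose at days 3 and 7 against day 1. With limma, 16 of 59 members differed between day 3 and day 1 over the 3 doses, beside 23.5% of all tested genes. Of these 13 fell, or 22.03% of members, beside 10.6% of all genes. Between day 7 and day 1, 21 members differed beside 25.0% of all genes, and 19 fell, or 32.2% of members beside 14.8% of all genes. The median difference over the 59 tested members on the log2(FPKM + 1) scale was -0.04 at day 3 and -0.09 at day 7, beside 0.03 and -0.01 over all genes. At day 14 against day 1, 3 members rose and 2 fell, beside 14.9% of all genes called and 7.67% called lower. A difference among the 4 days of any kind was called in 30 members, 50.8% of the family and near the background of 49.5%. The smallest limma adjusted p-values of that F-test were those of Kcna2 at 3.246e-07, Kcna3 at 3.42e-05, Kcnd3 at 5.64e-05, Kcnj6 at 0.000219, Kcnh5 at 0.000251 and Kcnk1 at 0.00026. Without the 7 libraries that lie between 2 others, 11, 9 and 0 members were called at days 3, 7 and 14 against day 1, beside 11.9%, 13.2% and 4.66% of all genes. The count at day 14 was 3 without any 1 of 1/10 LD50 day 1 replicate 2, 1/2 LD50 day 1 replicate 3, 1/10 LD50 day 14 replicate 1, 1/5 LD50 day 14 replicate 1 or 2, and 1/2 LD50 day 14 replicate 3.

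**Figure D2:**
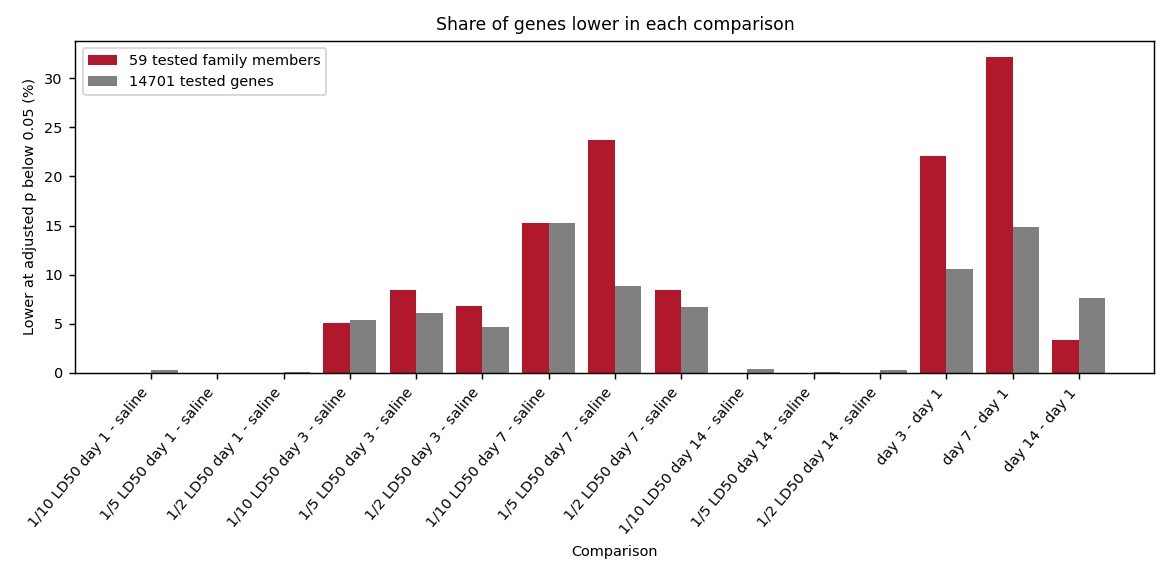
Share of the 59 tested members (red) and of the 14701 tested genes (grey) that were lower at an adjusted p below 0.05 in each comparison, in percent. The members' bar exceeds the grey bar most at day 7 against day 1, with 32.2% and 14.8%, and at 1/5 LD50 day 7 against saline, with 23.7% and 8.87%.

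Against saline, the calls lay at days 3 and 7. No member was called by limma at day 1 in any dose, beside 0.347%, 0.0136% and 0.116% of all genes at 1/10, 1/5 and 1/2 LD50 (0.279%, 0.0136% and 0.0884% lower). An unadjusted p below 0.05 was found in 7, 2 and 6 of 59 members, beside 1579, 843 and 1075 of the 14701 tested genes. At day 3, 3, 5 and 4 members fell at 1/10, 1/5 and 1/2 LD50, beside 6.97%, 8.60% and 8.44% of all genes called and 5.36%, 6.12% and 4.65% called lower. At day 7, 1/10 LD50 had 10 members called, beside 19.5% of all genes, of which 9 fell and Kcnj16 rose. The share of members that fell, 15.3%, equalled that of all genes. At 1/5 LD50 14 members fell, 23.7% of the family, beside 15.4% of all genes called and 8.87% called lower, while at 1/2 LD50 5 fell, beside 8.39% called and 6.68% lower. No member was called by limma at day 14, beside 0.435%, 0.163% and 0.415% of all genes. Here 1, 6 and 2 members had an unadjusted p below 0.05, beside 1655, 1522 and 1313 of all tested genes. The mean of all 12 soman groups gave 0 members by limma, beside 2.57% of all genes. An unadjusted p below 0.05 there was found in 13 members, beside 2453 of all tested genes.

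These counts rested on single libraries, and the share of all genes called without each library is not given here. For 1/10 LD50 at day 3 the count of 3 became 0 without saline replicate 1 or the group's own replicate 2, 1 without saline replicate 3 and 6 without its own replicate 3. For 1/5 LD50 at day 3 the count of 5 became 1 without saline replicate 1, 0 without saline replicate 3 or its own replicate 1 or 2, and 8 without its own replicate 3. For 1/2 LD50 at day 3 the count of 4 became 0 without saline replicate 1 or 3 or its own replicate 1, and 2 without saline replicate 2. At day 7, the 10 members of 1/10 LD50 became 6, 3 and 4 without saline replicates 1, 2 and 3, and 18, 4 and 1 without its own replicates 1, 2 and 3. Without its replicate 1 that group holds only the libraries high in mitochondrial transcripts. The 14 of 1/5 LD50 became 9, 8 and 6 without saline replicates 1, 2 and 3, and 9 and 5 without its own replicates 1 and 3. The 5 of 1/2 LD50 became 2 and 1 without saline replicates 1 and 3 and 0 without its own replicate 1. That replicate, and replicate 2 of 1/10 and of 1/5 LD50 day 3, are the 3 libraries low in cerebellar markers. The 0 of the mean of 12 soman groups became 1 without 1/10 LD50 day 1 replicate 1, 1/5 LD50 day 3 replicate 3, or 1/2 LD50 day 7 replicate 1 or 3.

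**Figure D3:**
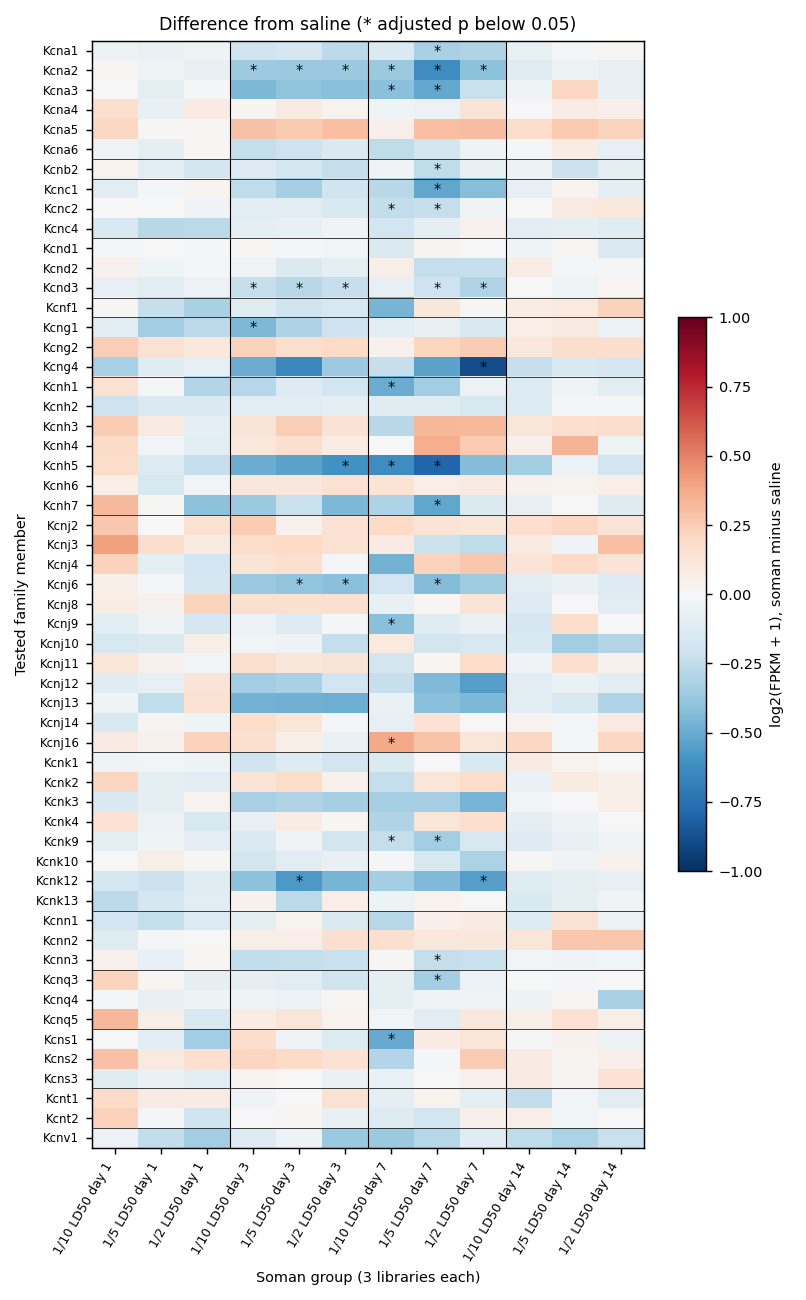
Difference of 56 tested members (rows, by subfamily letter) from saline in each of the 12 soman groups (columns, by day), as log2(FPKM + 1) on a colour scale from -1 to 1. Stars mark an adjusted p below 0.05, and they lie in the columns of day 3 and day 7, with 13 in that of 1/5 LD50 at day 7.

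The Shaker-related Kcna subunits carried the family's smallest p-value. Kcna2, an axonal delayed-rectifier subunit, was at 24.0, 21.9 and 24.6 FPKM in the saline libraries. At day 1 its 9 libraries ran from 20.7 through a median of 22.3 to 26.9 FPKM. At day 3 they ran from 15.9 through 17.6 to 20.6 FPKM and at day 7 from 14.0 through 17.0 to 19.7 FPKM, so that every library of both days lay below every library of day 1 and of saline. Kcna2 was the only member wholly below day 1 on either day, beside 1.60% of all tested genes at day 3 and 2.20% at day 7. At day 14 the range of 20.3 to 23.4 FPKM, with a median of 22.03, overlapped day 1. Kcna2 fell by 0.33 ± 0.06 (SE) on the log2(FPKM + 1) scale at day 3 (limma adjusted p = 9.14e-05) and by 0.43 ± 0.06 at day 7 (limma adjusted p = 1.416e-06). Both calls held without each single library and without the 7 libraries that lie between 2 others. After removal of the trend with transcript length in each library, the difference was -0.13 at day 3 (limma adjusted p = 0.0728) and -0.21 at day 7 (limma adjusted p = 0.00183).

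Kcna2 was also the member called against saline in every dose at days 3 and 7. At 1/5 LD50 on day 7 its libraries were at 15.0, 14.0 and 15.9 FPKM, and it fell by 0.62 ± 0.10 (limma adjusted p = 6.195e-05). This call held without each of the 6 libraries in turn, with a highest limma adjusted p of 0.000925, without the libraries that lie between 2 others (0.00594) and with the length trend removed (0.014). The other 5 falls of Kcna2 were smaller, and each was lost without at least 1 library. All 5 were also lost with the length trend removed (limma adjusted p from 0.121 to 0.414). The same held without the libraries that lie between 2 others (limma adjusted p from 0.114 to 0.181). At 1/10 LD50 day 3 it fell by 0.36 ± 0.10 (limma adjusted p = 0.0195), and the p was 0.0696 and 0.0928 without saline replicates 1 and 3 and 0.151 without its own replicate 2. At 1/5 LD50 day 3 it fell by 0.37 ± 0.10 (limma adjusted p = 0.0142), with 0.0544 and 0.0702 without saline replicates 1 and 3 and 0.0627 and 0.115 without its own replicates 1 and 2. At 1/2 LD50 day 3 it fell by 0.37 ± 0.10 (limma adjusted p = 0.0161), with 0.0576 and 0.077 without saline replicates 1 and 3 and 0.093 without its own replicate 1. At day 7, the fall at 1/10 LD50 was 0.37 ± 0.10 (limma adjusted p = 0.00863, or 0.063 without its own replicate 3) and that at 1/2 LD50 0.41 ± 0.10 (limma adjusted p = 0.00702, or 0.135 without its own replicate 1). Replicate 2 of 1/10 and of 1/5 LD50 day 3 and replicate 1 of 1/2 LD50 day 7 are the 3 libraries low in cerebellar markers. Without all 3 of them the limma adjusted p of Kcna2 in these groups was 0.073, 0.0458 and 0.0732. Against day 1 it was then 0.000276 at day 3 and 9.89e-07 at day 7.

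Kcna3, a subunit known from microglia, lymphocytes and neurons, was at 2.81, 3.34 and 3.27 FPKM in saline. Its libraries ran from 2.39 through 2.94 to 3.97 FPKM at day 1, from 1.68 through 2.18 to 2.51 at day 3, from 1.35 through 2.22 to 2.98 at day 7 and from 2.77 through 2.98 to 4.01 at day 14. Days 3 and 7 were thus low with some overlap with day 1. Kcna3 fell by 0.38 ± 0.08 at day 3 (limma adjusted p = 0.00115) and by 0.34 ± 0.08 at day 7 (limma adjusted p = 0.00231), and both calls held without each library in turn and with the length trend removed. Of the other tested Kcna members, Kcna6 fell at day 3 and Kcna1, the partner of Kcna2 in axons, fell at day 7. Kcna6 lost its call without any 1 of 13 of the 18 libraries, with a highest limma adjusted p of 0.112. The call of Kcna1 was lost without 1/10 LD50 day 1 replicate 1 (limma adjusted p = 0.0522) or 1/2 LD50 day 7 replicate 1 (0.0573). The cardiac-type Kcna5, at a mean of 0.995 FPKM, rose at day 3 but lost its call without any 1 of 9 libraries, and the A-type Kcna4 was not called. The summed level of the 8 Kcna members was 63.8 ± 2.96 FPKM in saline (SD, n = 3), 62.2 ± 4.09 at day 1, 53.0 ± 3.65 at day 3, 51.5 ± 5.65 at day 7 and 62.4 ± 2.55 at day 14 (n = 9 each).

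**Figure D4:**
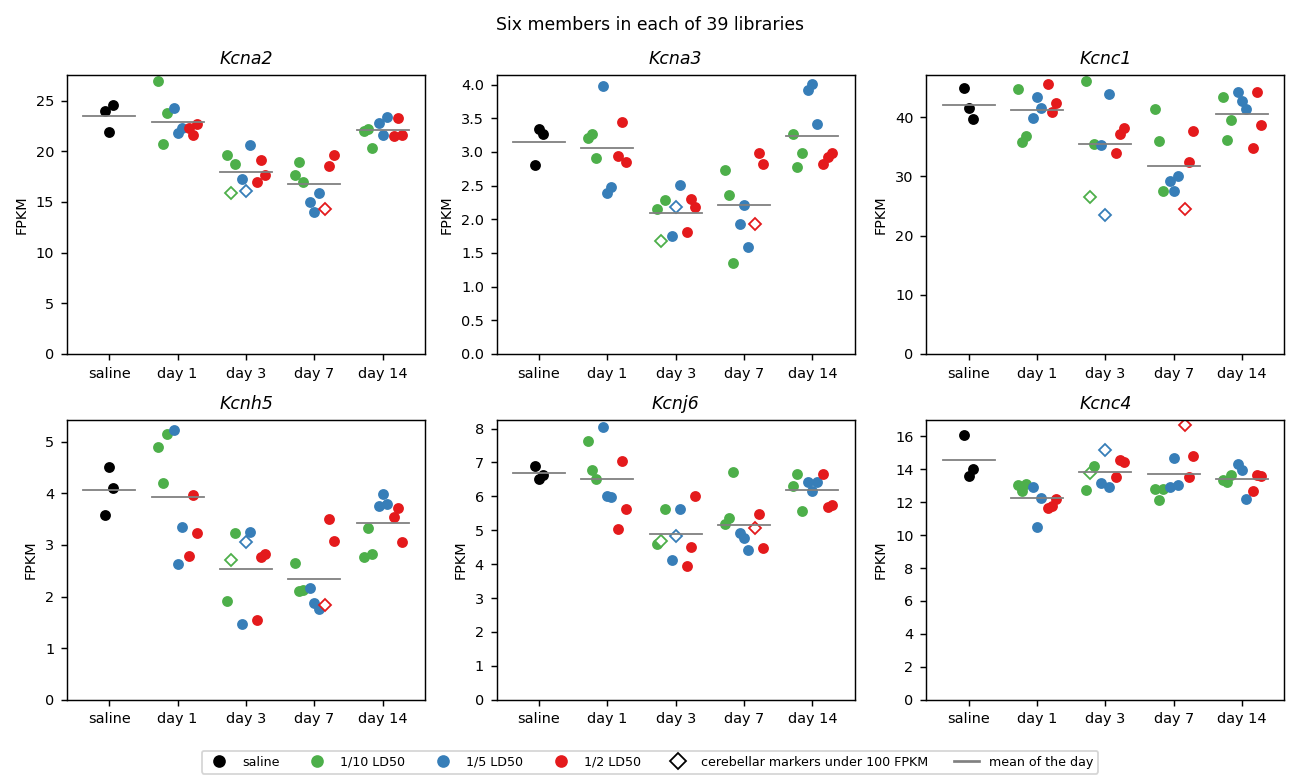
FPKM of Kcna2, Kcna3, Kcnc1, Kcnh5, Kcnj6 and Kcnc4 in each of 39 libraries, by saline or day and coloured by dose, with a line at each mean; open diamonds mark the 3 libraries with cerebellar markers under 100 FPKM. Kcna2 at day 3 (highest 20.6) and day 7 (highest 19.7) lies below day 1 (lowest 20.7), while Kcnc4 at day 1 lies at the low end.

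Promoter windows are shown for 4 voltage-gated members called at both day 3 and day 7 against day 1, of which Kcna3, Kcna2 and Kcnh5 fell, and Kcnc4 rose; Kcna3, Kcna2 and Kcnc4 lie in 1 stretch of chromosome 3. Each holds 250 bases before and 50 after the start in RefSeq (GRCm38.p6), read 5′ to 3′ on the gene's strand, and capitals mark the GC box GGGCGG or its reverse complement CCGCCC, a motif bound by Sp1-type factors. The windows are chr3:107035912-107036211 (+) for Kcna3, chr3:107101317-107101616 (+) for Kcna2, chr3:107458849-107459148 (-) for Kcnc4 and chr12:75177283-75177582 (-) for Kcnh5.
Kcna3: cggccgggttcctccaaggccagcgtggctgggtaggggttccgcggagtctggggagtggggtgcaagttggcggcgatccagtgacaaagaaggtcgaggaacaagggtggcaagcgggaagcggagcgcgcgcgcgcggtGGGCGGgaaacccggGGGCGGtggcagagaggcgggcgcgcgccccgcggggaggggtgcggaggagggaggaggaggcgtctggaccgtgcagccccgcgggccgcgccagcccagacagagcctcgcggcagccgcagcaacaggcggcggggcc
Kcna2: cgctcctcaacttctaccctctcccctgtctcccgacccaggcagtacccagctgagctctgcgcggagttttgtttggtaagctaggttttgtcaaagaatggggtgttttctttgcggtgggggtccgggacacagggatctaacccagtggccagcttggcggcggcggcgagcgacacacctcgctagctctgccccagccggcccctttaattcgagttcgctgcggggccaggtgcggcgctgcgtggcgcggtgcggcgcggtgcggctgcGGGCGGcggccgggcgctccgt
Kcnc4: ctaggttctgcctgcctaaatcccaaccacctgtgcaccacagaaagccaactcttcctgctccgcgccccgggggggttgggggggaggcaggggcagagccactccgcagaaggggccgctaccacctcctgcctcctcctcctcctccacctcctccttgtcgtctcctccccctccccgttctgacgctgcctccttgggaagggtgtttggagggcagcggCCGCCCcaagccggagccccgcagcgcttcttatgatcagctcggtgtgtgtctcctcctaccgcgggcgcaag
Kcnh5: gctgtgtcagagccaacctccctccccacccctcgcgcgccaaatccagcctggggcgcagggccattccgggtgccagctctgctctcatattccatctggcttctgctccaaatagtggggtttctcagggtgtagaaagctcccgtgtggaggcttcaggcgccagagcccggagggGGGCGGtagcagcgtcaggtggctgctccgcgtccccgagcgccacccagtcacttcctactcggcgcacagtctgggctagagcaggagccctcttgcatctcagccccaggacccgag
Kcna3 holds 2 GC boxes and each of the others 1. These windows were picked by hand. Other voltage-gated members called on both days, such as Kcnd3, Kcnh6, Kcnh7 and Kcnq3, are not shown. The GC box was present in 35.7% of the 32851 RefSeq promoter windows of this length and in 34 of 67 windows of the family (50.7%), which cover 53 members. It occurred in windows of members that fell and in that of Kcnc4, which rose.

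Among the Shaw-related Kcnc subunits, which let neurons fire at high rates, Kcnc1 and Kcnc2 fell at day 7 against day 1 and Kcnc4 rose at days 3 and 7. Kcnc1 was at 44.8, 41.5 and 39.7 FPKM in saline, at 35.8 to 45.6 at day 1 and at 24.5 to 41.3 with a median of 30.1 at day 7. It fell by 0.38 ± 0.10 at day 7 (limma adjusted p = 0.00513), and by 0.32 without the 3 libraries low in cerebellar markers (0.00153), which held 26.5, 23.4 and 24.5 FPKM of Kcnc1. The cerebellar marker sum had a median of 363 FPKM at day 1 (322.2 to 479.3), 335 at day 3 and 298 at day 7. The median log2 difference of the 8 markers against day 1 was -0.74 at day 3 and -0.67 at day 7, with 1 of 8 markers called lower at day 3 and 0 at day 7. Beyond the 3 low libraries, 1/5 LD50 day 7 replicate 2 and 1/2 LD50 day 7 replicates 2 and 3 were at 184.3, 234.1 and 223.5 FPKM. The other day 7 libraries were at 297.8 to 430.7 FPKM. The part of the cerebellar share in the remaining difference was not tested. The call of Kcnc1 held without each single library and was lost with the length trend removed (0.0831) and without the 2 libraries high in mitochondrial transcripts (0.0502). At 1/5 LD50 day 7 Kcnc1 fell against saline as well, lost without any 1 of the 6 libraries. Kcnc2 fell by 0.15 ± 0.05 at day 7 against day 1 (limma adjusted p = 0.0125), held without each library and was lost with the length trend removed (0.28). Kcnc4, singled out after its values were seen, was at 16.1, 13.6 and 14.0 FPKM in saline, 10.5 to 13.1 at day 1, 12.8 to 15.2 at day 3 and 12.1 to 16.7 at day 7. It rose by 0.17 ± 0.04 at day 3 (limma adjusted p = 0.00663) and by 0.15 ± 0.04 at day 7 (limma adjusted p = 0.0111), held without each library in turn, and was not called against saline in any group. Day 1 was thus the low point of Kcnc4.

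Of the Shal-related A-type subunits, Kcnd3 fell and the more abundant Kcnd2 was not called in any comparison. Kcnd3 was at 9.39, 9.50 and 10.5 FPKM in saline and ran from 8.81 through 9.29 to 9.58 FPKM at day 1 and from 7.11 through 8.04 to 8.82 at day 3, so that the 2 days barely overlapped. It fell by 0.17 ± 0.04 at day 3 (limma adjusted p = 0.00319) and held without each library, but was at -0.05 with the length trend removed (0.364). Its fall of 0.12 ± 0.04 at day 7 (limma adjusted p = 0.0307) was lost without any 1 of 8 libraries and was at 0.02 with the length trend removed (0.674). Against saline it fell at day 3 by 0.23 ± 0.07, 0.28 ± 0.07 and 0.23 ± 0.07 at 1/10, 1/5 and 1/2 LD50 (limma adjusted p = 0.0377, 0.0112 and 0.0333) and at day 7 by 0.30 ± 0.07 at 1/2 LD50 (limma adjusted p = 0.00585). Without saline replicate 3 the limma adjusted p of those 4 calls was 0.188, 0.0793, 0.167 and 0.0538. The call at 1/10 LD50 day 3 was lost too without saline replicate 1 (0.0565) or 2 (0.0634) or its own replicate 2 (0.292), and that at 1/5 LD50 day 3 without its own replicate 1 (0.0625) or 2 (0.08). The call at 1/2 LD50 day 3 was lost too without saline replicate 1 (0.0512) or 2 (0.0549) or its own replicate 1 (0.172) or 3 (0.0825), and that at 1/2 LD50 day 7 without its own replicate 1 (0.0693). Of these, replicate 2 of 1/10 and of 1/5 LD50 day 3 and replicate 1 of 1/2 LD50 day 7 are the 3 libraries low in cerebellar markers. Without all 3 of them the limma adjusted p of Kcnd3 in these groups was 0.278, 0.0394 and 0.029. Kcnd3 was called lower at 1/5 LD50 day 7 as well, and Kcnd1 was not called.

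Of the silent subunits that join Shab channels, Kcng1 was called at day 14 against day 1 and at 1/10 LD50 day 3 against saline. Kcng1 was at 4.55, 4.63 and 4.12 FPKM in saline, ran from 2.64 through 3.69 to 4.65 at day 1 and from 3.75 through 4.601 to 5.04 at day 14, and rose by 0.27 ± 0.07 between these days (limma adjusted p = 0.00744). The day 14 values overlapped saline, and without the 7 libraries that lie between 2 others the limma adjusted p was 0.121. All libraries of 1/10 LD50 day 3 lay below saline in 12 members, beside 15.8% of all tested genes. Kcng1 was 1 of these, at 2.54, 3.11 and 3.35 FPKM, and fell by 0.45 ± 0.12 (limma adjusted p = 0.0206). Leaving out saline replicate 1 (0.07) or 2 (0.0726) or the group's own replicate 1 (0.0914) or 2 (0.0587) ended that call. Kcng4 was at 2.00, 4.77 and 8.36 FPKM at 1/2 LD50 day 7, against 9.54, 8.63 and 9.09 in saline, and its lowest value came from the library low in cerebellar markers. It fell by 0.89 ± 0.26 there (limma adjusted p = 0.0288, or 0.375 without that library). That call was lost as well without saline replicate 1, 2 or 3 (0.0829, 0.0579 and 0.0879) or the group's own replicate 2 (0.0523). Kcnb2, itself a Shab subunit, fell at 1/5 LD50 day 7 against saline. That call was lost without any 1 of 3 of 6 libraries (limma adjusted p up to 0.233) and with the length trend removed (0.508). Kcnf1 and Kcnv1 were not called in any comparison, and their ranges of 6.83 to 16.2 and 2.36 to 5.20 FPKM were wide.

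Kcns2, another silent subunit, ran from 2.72 through 3.96 to 4.55 FPKM at day 1 and from 1.68 through 3.16 to 4.46 at day 7, beside 2.94, 3.17 and 3.43 in saline. It fell by 0.20 ± 0.07 at day 7 against day 1 (limma adjusted p = 0.0326), which was lost without any 1 of 8 of 18 libraries and without the libraries high in mitochondrial transcripts (0.267). Kcns1 fell at 1/10 LD50 day 7 and Kcns3 rose at day 14 against day 1. The call of Kcns3 was lost without any 1 of 7 libraries.

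In the Kcnh group, Kcnh5 fell most. This ether-a-go-go subunit of neurons was at 3.59, 4.51 and 4.10 FPKM in saline. It ran from 2.62 through 3.96 to 5.22 FPKM at day 1, from 1.46 through 2.77 to 3.25 at day 3, from 1.75 through 2.13 to 3.49 at day 7 and from 2.76 through 3.54 to 3.98 at day 14. The spread at day 1 was wide, also within a dose, with 1/5 LD50 at 5.22, 2.62 and 3.35 FPKM. Kcnh5 fell by 0.49 ± 0.11 at day 3 (limma adjusted p = 0.002) and by 0.56 ± 0.11 at day 7 (limma adjusted p = 0.000388), and both calls held without each library and in each other alternative. At 1/5 LD50 day 7 its libraries were at 2.16, 1.87 and 1.75 FPKM, and it fell against saline by 0.79 ± 0.19 (limma adjusted p = 0.00507, at most 0.0302 without any 1 library, and 0.0593 without the 7 libraries that lie between 2 others).

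Kcnh1, the other ether-a-go-go subunit, was at 8.58, 9.52 and 9.32 FPKM in saline and at 6.80, 5.56 and 6.21 FPKM at 1/10 LD50 day 7. It fell there by 0.50 ± 0.12 (limma adjusted p = 0.00652), and the p was at most 0.0386 without any 1 library. Without both libraries high in mitochondrial transcripts, which leaves replicate 1 alone in that group, the limma adjusted p was 0.429. Between day 7 and day 1 over 3 doses Kcnh1 fell by 0.25 ± 0.07 (limma adjusted p = 0.00989), and this was lost with the length trend removed (0.292), without the libraries high in mitochondrial transcripts (0.0619) and without those that lie between 2 others (0.127). Kcnh7 fell at days 3 and 7 and Kcnh6, at a mean of 0.957 FPKM, rose on both, the latter lost at day 7 without any 1 of 9 libraries. Both calls of Kcnh7 were lost with the length trend removed (limma adjusted p = 0.563 and 0.702) and without the 7 libraries that lie between 2 others (0.0674 and 0.113), and the day 3 call of Kcnh6 with the length trend removed (0.052). Kcnh3, the most abundant Kcnh subunit, Kcnh2, the cardiac ERG1 subunit, and Kcnh4 were not called.

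Of 12 tested inward rectifiers, 2 fell at day 3 and 4 at day 7 against day 1, beside 10.6% and 14.8% of all genes. The 4 at day 7 were Kcnj3, Kcnj6, Kcnj12 and Kcnj13. The call of Kcnj12 was lost without any 1 of 3 of 18 libraries (limma adjusted p up to 0.0772). Kcnj6, a subunit of the G-protein-gated channels that carry inhibitory receptor currents, was at 6.91, 6.52 and 6.64 FPKM in saline. It ran from 5.03 through 6.52 to 8.04 FPKM at day 1, from 3.96 through 4.68 to 6.001 at day 3, from 4.42 through 5.08 to 6.71 at day 7 and from 5.55 through 6.31 to 6.67 at day 14. Kcnj6 fell by 0.35 ± 0.07 at day 3 (limma adjusted p = 0.000537) and by 0.28 ± 0.07 at day 7 (limma adjusted p = 0.00285), both held without each library. Its fall against saline at 1/2 LD50 day 3 was 0.42 ± 0.12 (limma adjusted p = 0.0297), which was lost without any 1 saline library (0.0907, 0.0603 and 0.0806) or the group's own replicate 1 (0.2) or 2 (0.0841). Of its partners, Kcnj3 fell at day 7 against day 1 and Kcnj9 fell at 1/10 LD50 day 7 alone. Kcnj9 was there at 21.3, 16.5 and 15.9 FPKM, against 20.7, 26.3 and 25.8 in saline, and fell by 0.42 ± 0.11 (limma adjusted p = 0.0108). Kcnj9 was no longer called without saline replicate 2 (0.0532) or 3 (0.0545) or the group's own replicate 2 (0.0524) or 3 (0.102), the last 2 being the libraries high in mitochondrial transcripts.

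Kcnj10 and Kcnj16 pair in astrocytes. Kcnj10 was at 47.6 ± 6.69 FPKM in saline (SD, n = 3) and 44.8 ± 5.71, 44.2 ± 5.98, 45.3 ± 8.99 and 39.4 ± 4.28 FPKM at days 1, 3, 7 and 14 (n = 9) and was not called in any comparison. Kcnj16 rose at 1/10 LD50 day 7 against saline, at 7.98, 9.08 and 7.26 FPKM beside 6.60, 5.08 and 6.36, a call lost without any 1 of 5 of 6 libraries. Kcnj10 was there at 50.2, 58.5 and 43.8 FPKM beside 54.7, 41.5 and 46.4 in saline, and the difference between both genes was not tested. Kcnj13, the inward rectifier of choroid plexus epithelium, was singled out after its values were seen. Its saline libraries were at 2.23, 0.929 and 1.30 FPKM, and its level ran from 0.759 through 1.36 to 1.95 FPKM at day 1 and from 0.590 through 0.692 to 0.962 at day 3. It fell by 0.43 ± 0.09 at day 3 (limma adjusted p = 0.00107) and held without each library. Of 7 tested choroid plexus markers 4 fell at day 3, and the summed level of the list had a median of 390 FPKM (230 to 582) at day 1 and 345 FPKM (234 to 527) at day 3. Kcnj8, the pericyte-type subunit of ATP-sensitive channels, fell at day 14 against day 1, lost without any 1 of 14 libraries. Of 6 pericyte markers 4 fell in that comparison, with summed medians of 63.6 and 55.6 FPKM. The part of either cell type in these differences was not tested.

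Among the K2P leak channels, Kcnk1, Kcnk9 and Kcnk12 were called against day 1 or saline. Kcnk1 was at 29.2, 28.7 and 27.1 FPKM in saline and ran from 25.7 through 27.3 to 29.8 at day 1 and from 23.4 through 24.6 to 28.7 at day 3. It fell by 0.13 ± 0.04 at day 3 (limma adjusted p = 0.0112, or 0.0586 without the 3 libraries low in cerebellar markers) and was not called at day 7. Kcnk9, the acid-sensitive TASK3 channel, was at 10.4, 9.44 and 9.01 FPKM in saline and at 6.94, 7.89 and 7.23 FPKM at 1/5 LD50 day 7. It fell there by 0.34 ± 0.08 (limma adjusted p = 0.00569, at most 0.0414 without any 1 library), and by 0.17 ± 0.05 at day 7 against day 1 over 3 doses (limma adjusted p = 0.00921). With the length trend removed those p-values were 0.877 and 0.413, and the difference at day 7 against day 1 was 0.06. The call of Kcnk9 at day 7 against day 1 was lost too without the 7 libraries that lie between 2 others (limma adjusted p = 0.0513). Leaving out the 2 libraries high in mitochondrial transcripts, which leaves 1 library at 1/10 LD50 day 7, also ended it. Kcnk12, a silent K2P subunit, was at 4.02, 2.38 and 5.21 FPKM at 1/5 LD50 day 3 against 7.09, 5.32 and 5.78 in saline and fell by 0.57 ± 0.17 (limma adjusted p = 0.0326). Its lowest value there, too, was that of the library low in cerebellar markers, without which the limma adjusted p was 0.283. That call was lost as well without saline replicate 1 (0.143) or 3 (0.0739) or the group's own replicate 1 (0.0617). The 8 tested Kcnk members included Kcnk2, Kcnk3, Kcnk4, Kcnk10 and Kcnk13, none of them called against day 1 or saline. For any difference among the 4 days Kcnk3 was called. This held without each single library but not without the 7 libraries that lie between 2 others (limma adjusted p = 0.133). The call of Kcnk3 was also lost without the 2 libraries high in mitochondrial transcripts.

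Calcium-activated, M-current and sodium-activated subunits differed in direction. Kcnn3 was at 2.86, 2.83 and 2.63 FPKM in saline and ran from 2.45 through 2.70 to 3.09 at day 1 and from 2.01 through 2.25 to 2.46 at day 3. It fell by 0.22 ± 0.04 at day 3 (limma adjusted p = 0.000733) and held without each library, and by 0.14 ± 0.04 at day 7 (limma adjusted p = 0.0216), where it was lost without 1/5 LD50 day 7 replicate 1 (0.05002) or 3 (0.0611). Kcnn2, which shapes the afterhyperpolarization, was at 13.9, 13.03 and 12.97 FPKM in saline, 10.2 to 15.3 at day 1 and 13.6 to 17.8 at day 14. It rose by 0.26 ± 0.07 at day 14 against day 1 (limma adjusted p = 0.0152). Kcnt1 was at 29.2, 29.7 and 28.4 FPKM in saline, 28.3 to 34.3 at day 1 and 23.6 to 29.1 at day 14, and fell by 0.24 ± 0.07 (limma adjusted p = 0.0153). The calls of Kcnn2 and Kcnt1 held without each single library but not without the 7 libraries that lie between 2 others (0.13 and 0.138). Kcnq3, an M-current subunit, fell at days 3 and 7 against day 1, lost at day 3 without any 1 of 11 libraries and at day 7 without 1/5 LD50 day 1 replicate 1 (limma adjusted p = 0.0507). With the length trend removed its limma adjusted p was 0.873 and 0.94.

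No member passed a test of dose. For any difference among the 3 doses over the 4 days, 0 members were called by limma beside 1.90% of all genes. An unadjusted p below 0.05 was found in 4 of 59 members, beside 3225 of the 14701 tested genes. For an interaction of dose and day, 0 members were called by limma, beside 1.59% of all genes. There 11 members had an unadjusted p below 0.05, beside 3192 of all tested genes. Without 1/10 LD50 day 7 replicate 1 the counts called for dose and for the interaction became 3 and 12 members. That group then holds only replicates 2 and 3, the libraries high in mitochondrial transcripts (23.1% and 27.6%). The share of all genes called in that fit is not given here. The count for the interaction was also 1 without 1/5 LD50 day 1 replicate 1, 1/10 LD50 day 3 replicate 3 or 1/2 LD50 day 7 replicate 3, and 2 without 1/5 LD50 day 1 replicate 2. The 14 falls at 1/5 LD50 day 7 are therefore not shown to differ from the other doses of that day.

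Genes that fell had longer transcripts than genes that rose. Over all tested genes, the median length of the longest transcript was 6688 bases for those that fell at day 3 against day 1 and 1682 for those that rose, and 5826 and 1842 at day 7. Tested members had a median of 4047 bases, all tested genes 3038, and the members that fell 4058 at day 3 and 5215 at day 7. Kcna2, Kcnk9 and Kcnh7 have long transcripts, of 11580, 12300 and 13320 bases, whereas Kcna3 has 1902. With each library's trend on length removed, 11 and 13 members were called at days 3 and 7 against day 1, 9 and 12 of them among the former 16 and 21, beside 8.22% and 16.2% of all genes. Among those that kept their calls on both days were Kcna3, Kcnc4, Kcnh5, Kcnj6, Kcnj13, Kcnk12 and Kcnn3. The day 7 calls of Kcnj13 and Kcnk12 were, however, lost without any 1 of 10 and 11 of 18 libraries (limma adjusted p up to 0.0893 and 0.109), and the day 3 call of Kcnk12 without any 1 of 3 libraries (up to 0.0681).

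**Figure D5:**
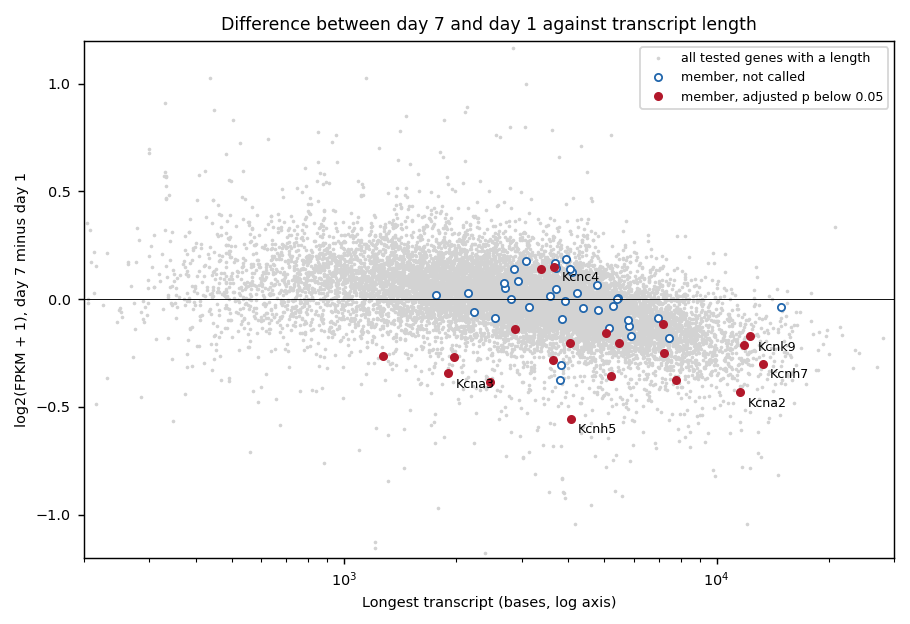
Difference between day 7 and day 1 over 3 doses as log2(FPKM + 1) against the length of the longest transcript in bases on a log axis, for all tested genes with a length (grey) and 56 tested members (circles, filled where called). The grey cloud slopes down with length. Kcnh5 and Kcna3 were both lower at day 7, and other genes lie lower than either. The axis leaves out 8 genes beyond 1.2 on either side.

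Auxiliary subunits set the traffic and gating of many of these pores. Of 26 genes written as accessory subunits or as the large-conductance pore Kcnma1, 25 were found and 18 tested, and at day 3 against day 1 1 rose and 1 fell, at day 7 3 fell and at day 14 1 rose. All genes were called at 23.5%, 25.0% and 14.9% in these comparisons, which is more than the partners' share of calls in either direction on each day. For falls alone, 1, 3 and 0 of 18 partners were called, beside 10.6%, 14.8% and 7.67% of all genes. At day 7 the partners' share of falls was thus not below that of all genes. Kcnma1, the BK channel pore, was at means of 21.2 FPKM in saline and 21.3, 17.5, 17.4 and 21.0 FPKM at days 1, 3, 7 and 14. It fell by 0.27 ± 0.05 at day 3 (limma adjusted p = 0.000512) and by 0.28 ± 0.05 at day 7 (limma adjusted p = 0.000238). Kcnab1, the beta subunit of Shaker channels, fell by 0.18 ± 0.05 at day 7 (limma adjusted p = 0.00713). Kcnab3, another beta subunit, rose by 0.15 ± 0.05 at day 3 (limma adjusted p = 0.0386) and by 0.20 ± 0.05 at day 14 (limma adjusted p = 0.0103). Against saline, Kcnma1 fell at 1/5 and 1/2 LD50 on day 7 by 0.40 ± 0.09 and 0.29 ± 0.09 (limma adjusted p = 0.00308 and 0.0412), and Dpp6, a Shal channel partner, fell at 1/5 LD50 by 0.28 ± 0.06 (0.00267). At 1/10 LD50 day 7, Amigo1, the partner of Shab channels, fell by 0.39 ± 0.09 (limma adjusted p = 0.00381) and Kcnab3 by 0.35 ± 0.09 (0.00906), and the Shal partner Kcnip1 rose. Replicates 2 and 3 of that group are the libraries high in mitochondrial transcripts, at 23.1% and 27.6%. None of the partner calls was run through the alternatives or with single libraries left out, so their hold is unknown.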

How the data were processed

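Poly(dT)-selected brain RNA, purified with Trizol, was measured in 39 libraries, per the labels' protocols. The deposited values are FPKM, computed by the authors, and reads were aligned with HISAT2 (no version given), per the submitters' processing notes, which list a human build, GRCh38, although the samples are mouse; the files' coordinates were left aside. The program that computed FPKM, and the animals or pools behind a library, are not given in the sources used here. The sequencing depth of a library and its precision are unknown, since the spacing of low values did not return whole reads (at most 1.38% at the commonest ratio over 28 library pairs). FPKM summed to 296322 to 342231 per library, with 24769 to 29662 genes above 0, and no 2 libraries were identical.

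Groups came from the labels. Genes at 1 FPKM or more in at least 3 libraries were fitted as log2(FPKM + 1) by limma (version 3.58.1, R 4.3.3), 1 model holding all 13 groups with trended eBayes, and Benjamini-Hochberg adjusted p over the 14701 genes was called below 0.05. This scale shrinks differences of genes near or below 1 FPKM. Tests compared each soman group and the mean of 12 with saline, days 3, 7 and 14 with day 1 over the 3 doses, and by F-test the 4 days, the 3 doses and their interaction. Full statistics are given for the 3 members of smallest adjusted p among those called in each comparison (6 in an F-test) and levels for the highest member of each letter. Other called members are named with counts or levels, not for every comparison that called them, and Kcnc4 and Kcnj13 were added after their values were seen. Partner genes are named up to 2 per comparison. Values of 3 tested members are not reported or drawn here, although counts and sums over the family include them. Members, lists of partner genes and cell markers, and tests were chosen with earlier results of these data known.

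Alternatives were median-ratio scaling, a replicate block, a pseudocount of 0.1, a fit without the filter, a model limited to the compared groups, removal of each library's length trend (lowess, span 0.5), and leaving out each library, the 2 libraries over 20% mitochondrial, or 7 intermediate ones. Among genes of mean FPKM 5 or more that differ over 2-fold in the remaining 2 libraries of its group, an intermediate library lies at 0.3 to 0.7 of the way for a larger share than any library of other groups. Leaving out the 3 libraries with cerebellar markers under 100 FPKM was chosen after seeing the data. Lengths came from GENCODE vM21 (95.9% of tested genes) and promoters from RefSeq (GRCm38.p6). The scripts were tested on simulated data, and summaries and figures were made in Python 3.11.15 (matplotlib 3.10.9, pandas 2.3.3, numpy 2.4.6).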

Additional observations from a re-analysis of the deposited data

How the results depend on the processing

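Counts of members called changed by over 1.5 times as follows, in the order in which the groups are named, with the share of all genes called under the same setting. The cause of these changes was not tested. Without the filter, 2 and 1 members were called at 1/5 and 1/2 LD50 day 3 (5 and 4 before; 2.49% and 2.32% of all genes), 5, 6 and 3 at 1/10, 1/5 and 1/2 LD50 day 7 (10, 14 and 5 before; 5.52%, 4.52% and 2.33%), and 3 at day 14 against day 1 (5 before; 5.33%). Median-ratio scaling gave 7 at 1/2 LD50 day 3 (10.05%). In a model limited to the compared groups, 0 were called at 1/10 and 1/5 LD50 day 3 and at 1/10 and 1/2 LD50 day 7 (1.46%, 2.38%, 0.034% and 3.78%). With the length trend removed, 3 were called at 1/5 LD50 day 3 (3.55%), 5, 8 and 2 at 1/10, 1/5 and 1/2 LD50 day 7 (14.9%, 5.67% and 3.63%), and 13 at day 7 against day 1 (21 before; 16.2%). Without the 2 libraries high in mitochondrial transcripts, 8 were called at each dose of day 3 (11.05%, 13.2% and 13.7%) and 0 at 1/10 LD50 day 7 (0.0272%), where 1 library is left that is assumed to vary like the other groups. Without the 7 libraries that lie between 2 others, 0 were called in each group of day 3 (0.98%, 1.38% and 0.952%), 0, 2 and 0 at 1/10, 1/5 and 1/2 LD50 day 7 (0.469%, 5.14% and 1.33%), 9 at day 7 and 0 at day 14 against day 1 (13.2% and 4.66%) and 17 (30 before; 29.99%) for any difference among 4 days. Without the 3 libraries low in cerebellar markers, an alternative chosen after seeing the data, 0, 2 and 7 were called at 1/10, 1/5 and 1/2 LD50 day 3 (2.94%, 3.56% and 9.16%), 1 at 1/2 LD50 day 7 (2.86%) and 1 for the mean of 12 soman groups (2.26%). The difference between day 7 and day 1 changed sign with the length trend removed for Kcnk9 (0.05738, limma adjusted p = 0.413) and Kcnd3 (0.02236, limma adjusted p = 0.674).

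Leaving out each library in turn, the counts ran from 0 to 6, 0 to 8 and 0 to 4 at 1/10, 1/5 and 1/2 LD50 day 3, from 1 to 18, 5 to 10 and 0 to 7 at 1/10, 1/5 and 1/2 LD50 day 7, from 12 to 19, 15 to 25 and 3 to 6 at days 3, 7 and 14 against day 1, from 27 to 33 among 4 days, from 0 to 3 among 3 doses, from 0 to 12 for the interaction and from 0 to 1 for the mean of 12. They were 0 at day 1 and day 14 of each dose under every alternative run. The share of all genes called is not given here for the single libraries left out. Replicate numbers did not pair the samples: deviations of same-numbered libraries had a median correlation of 0.00535 and a lowest of -0.326, with 39 of 234 pairs over 0.1. With the replicate block, 4, 5 and 4 members were called at day 3, 8, 14 and 5 at day 7 against saline, and 14, 21 and 4 at days 3, 7 and 14 against day 1, each within 1.5 times the count without it. Of all genes, 6.67%, 8.14% and 7.86% were then called at day 3 and 19.04%, 15.1% and 7.90% at day 7 against saline. At days 3, 7 and 14 against day 1 it was 22.9%, 24.4% and 14.55%. A pseudocount of 0.1 moved no count by over 1.5 times. Unknown depth limits what can be said of members near 1 FPKM.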
